A study of Mus musculus with 2 samples.

Results

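Slow-fibre troponins, myosin light chains and their sarcomere partners were followed in single-nucleus RNA sequencing data of the gastrocnemius-plantaris (GP), a muscle group of the mouse calf. The members were 8 genes of 27998 in the deposited matrices, matched by gene symbol: the troponin subunits Tnnt1, Tnnc1 and Tnni1, the tropomyosin Tpm3, the myosin light chains Myl2 and Myl3, and the Z-disc proteins Myoz2 and Csrp3. Their levels were read by the adult myosin heavy chain gene that dominated each nucleus and by library.

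Skeletal muscle fibres are slow (type I) or fast (types IIa, IIx and IIb), and each type builds its sarcomeres from its own set of protein isoforms. In the thin filament, troponin C binds calcium, troponin I holds the filament inactive at rest and troponin T ties both to tropomyosin, which lies along actin. In the thick filament, an essential and a regulatory light chain wrap the neck of each myosin head. Slow fibres use Myh7 as their myosin heavy chain, while Myh2, Myh1 and Myh4 mark types IIa, IIx and IIb. GP muscle of the mouse is largely fast.

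The study asked how nuclei of adult muscle differ after loss of Net39 (gene symbol Plpp7), a transmembrane protein of the muscle nuclear envelope. Control mice (Ctrl) were Net39 fl/fl without Cre. Knockout mice (cKO) were HSACreERT2;Net39 fl/fl, in which a tamoxifen-inducible Cre under the human skeletal actin promoter removes the first exon of the gene in muscle fibres. Both groups received tamoxifen, shared a B6C3F1 background and were 5 months old, 3 months after tamoxifen. Each group had 1 library. The protocol has it made from 3 pooled muscles while the sample titles name mouse 1, so the number of animals behind each library is unsettled, and nuclei cannot be assigned to an animal. No difference could therefore be set against a spread between animals, no test was made, and every 95% interval below covers counting error only.

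Barcodes numbered 3863 in Ctrl, with 10410316 UMIs, and 3994 in cKO, with 8446070 UMIs, with medians of 2106 and 1662.5 UMIs per barcode. After filtering, 3526 Ctrl and 3595 cKO nuclei were used. Among them Malat1 accounted for 25.5% (Ctrl) and 30.7% (cKO) of all UMIs and mitochondrial genes for 0.499% and 0.565%, and 5 barcodes occurred in both libraries. Plpp7 stood at 51.8 CPM (the UMIs of a gene divided by all UMIs and scaled to a common total) in Ctrl myonuclei and 41.0 CPM in cKO myonuclei. In nuclei outside the fibres it stood at 17.4 CPM (10.5 to 27.2) and 32.8 CPM (18.7 to 53.2). This is a weak check of the labels, since the deleted exon is the first and the assay reads the 3′ end. Where the reads of this gene fell was not examined. Nuclei were split by clusters into myonuclei (2987 Ctrl and 3292 cKO) and nuclei outside the fibres (539 and 303). The fibroblast marker Pdgfra was at 2.79 and 1.04 CPM in Ctrl and cKO myonuclei, against 192 and 88.1 CPM outside the fibres. The fibre gene Ttn was itself at 20514 and 18663 CPM outside the fibres, against 45046 and 37982 CPM in myonuclei, so RNA of fibres was counted in nuclei of other cells.

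Positions of the members are given on GRCm38 from GENCODE M21. Tnnt1 lies at chr7:4504570-4516382 (minus strand), Tnni1 at chr1:135779434-135810989 (plus), Tpm3 at chr3:90072649-90100902 (plus) and Csrp3 at chr7:48830398-48848033 (minus). Tnnc1 at chr14:31208312-31211729 (plus), Myl2 at chr5:122100951-122113472 (plus) and Myl3 at chr9:110741861-110769798 (plus) overlap the antisense genes Nisch, Ccdc63 and Pth1r, whose reads could be told apart from theirs only by strand, which the default settings of the counting software use. Myoz2 lies at chr3:123006206-123035015 (minus). Tpm3 has a near copy in the matrices, Tpm3-rs7 on chromosome 14, that could share its reads, and its values are uncertain to that extent.

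The 250 bases before the start of transcription were read for all 8 members from RefSeq (build GRCm38.p6), which gave 12 promoters. An E-box (CANNTG), the site of myogenic basic helix-loop-helix factors, occurred in 12 of 12 member promoters and in 66.2% of 32851 promoters of the genome. The MCAT element (CATTCC) occurred in 2 of 12 against 12.6%, the MEF2 site in 1 of 12 against 2.92%, the CArG box in 1 of 12 against 1.47% and the TATA box (TATAAA) in 2 of 12 against 12.4%, all on either strand. A match is a run of letters and no evidence that a factor binds there. The 4 promoters below are shown because the bases just after their start occur in an annotated transcript of the gene and they hold a motif besides the E-box. That match does not show that the transcript begins at that base. Each is printed on the strand of its gene, and capitals mark the motif matches. They lie at chr7:4515976-4516225 (Tnnt1), chr14:31208062-31208311 (Tnnc1), chr9:110763428-110763677 (Myl3) and chr3:123034988-123035237 (Myoz2).
Tnnt1: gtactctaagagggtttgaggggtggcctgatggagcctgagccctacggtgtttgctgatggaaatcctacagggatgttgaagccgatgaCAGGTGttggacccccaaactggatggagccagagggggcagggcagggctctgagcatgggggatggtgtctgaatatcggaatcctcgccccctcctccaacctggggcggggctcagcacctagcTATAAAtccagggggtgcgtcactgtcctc
Tnnc1: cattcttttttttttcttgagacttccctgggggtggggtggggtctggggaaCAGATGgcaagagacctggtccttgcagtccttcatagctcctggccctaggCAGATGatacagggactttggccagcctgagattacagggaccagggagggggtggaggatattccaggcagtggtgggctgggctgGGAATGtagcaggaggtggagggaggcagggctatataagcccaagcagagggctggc
Myl3: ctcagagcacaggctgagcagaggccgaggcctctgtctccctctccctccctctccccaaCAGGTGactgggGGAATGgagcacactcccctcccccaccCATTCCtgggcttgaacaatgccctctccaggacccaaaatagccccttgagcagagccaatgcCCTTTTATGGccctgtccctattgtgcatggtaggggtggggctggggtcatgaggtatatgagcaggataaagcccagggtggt
Myoz2: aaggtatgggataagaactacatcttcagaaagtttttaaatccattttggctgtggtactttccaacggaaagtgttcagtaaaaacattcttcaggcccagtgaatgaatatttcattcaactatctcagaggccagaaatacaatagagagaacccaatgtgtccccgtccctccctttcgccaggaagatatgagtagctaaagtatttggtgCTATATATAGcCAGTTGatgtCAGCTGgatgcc
The capitals of Tnnt1 mark an E-box and a TATA box that begins 30 bases before the start. Those of Tnnc1 mark E-boxes and an MCAT element, those of Myl3 an E-box, 2 MCAT elements and a CArG box, and those of Myoz2 a MEF2 site that begins 33 bases before the start, followed by E-boxes.

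Over all myonuclei, all 8 members were more abundant in the cKO library than in the Ctrl library. Their summed level was 180 CPM (170 to 189) in Ctrl and 1038 CPM (1014 to 1063) in cKO, a log2 ratio of 2.53 (2.45 to 2.62). All 8 members, each with at least 50 UMIs over both libraries, were at least 2-fold higher in cKO, while 3.14% of 9280 genes with that many UMIs were. The median log2 ratio was 2.55 over the members and -0.08 over those 9280 genes. The 7 fast partners of the members, the genes that take the same place in fast fibres, summed to 5350 CPM in Ctrl against 5339 CPM in cKO (log2 ratio -0.00, -0.02 to 0.02).

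Among the troponins, Tnnt1 was at 17.1 CPM (14.4 to 20.3) in Ctrl and 178 CPM (168 to 188) in cKO, a log2 ratio of 3.37. Tnnc1 was at 7.24 CPM (5.48 to 9.38) and 73.7 CPM (67.4 to 80.5), a log2 ratio of 3.35. Tnni1 was at 6.35 CPM (4.71 to 8.37) and 31.2 CPM (27.2 to 35.7), a log2 ratio of 2.30. The calcium-binding and tropomyosin-binding subunits thus had ratios whose intervals (2.95 to 3.77 and 3.12 to 3.64) lay above that of the inhibitory subunit (1.85 to 2.77). Tpm3, the slow tropomyosin, whose gene also makes cytoplasmic isoforms in other cell types, was at 48.4 CPM (43.6 to 53.5) in Ctrl and 338 CPM (325 to 353) in cKO.

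Of the light chains, the regulatory chain Myl2 was at 17.9 CPM (15.1 to 21.1) in Ctrl and 161 CPM (152 to 171) in cKO, with a log2 ratio of 3.17 (2.92 to 3.44). The essential chain Myl3 was at 3.81 CPM (30 UMIs) and 15.8 CPM (107 UMIs), a log2 ratio of 2.06 (1.46 to 2.69). Both chains were higher in cKO, and the ratio of Myl2 lay above that of Myl3. At the Z-disc, Myoz2 (calsarcin-1), which binds the phosphatase calcineurin, was at 52.6 CPM (47.6 to 57.9) and 179 CPM (169 to 189). Csrp3, the muscle LIM protein, was at 26.2 CPM (22.7 to 30.0) and 61.3 CPM (55.5 to 67.5). The Z-disc members had the smallest log2 ratios of the 8, at 1.77 (1.60 to 1.93) and 1.23 (0.98 to 1.48), although the interval of Myoz2 overlapped those of Myl3 and Tnni1 (1.85 to 2.77).

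Myh7 itself, which set the slow class below, was at 26.9 CPM in Ctrl myonuclei and 413 CPM in cKO myonuclei. A nucleus was called Myh7-main, Myh2-main, Myh1-main or Myh4-main when 60% or more of its UMIs of the 4 myosins, 3 or more in number, came from that gene. Myh7-main nuclei numbered 19 of 2987 myonuclei (0.636%, 0.383 to 0.992) in Ctrl and 275 of 3292 (8.35%, 7.43 to 9.35) in cKO. Myh2-main nuclei numbered 165 and 323, Myh1-main nuclei 301 and 381, and Myh4-main nuclei 1913 and 1434. A further 126 and 205 nuclei held several myosins with none at 60%, and 463 and 674 held fewer than 3 myosin UMIs. The last class takes in shallow nuclei, with medians of 1606 and 1241.5 UMIs against 2140 and 1647 over all myonuclei.

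Of the 8 members, 7 had their highest level in Myh7-main nuclei in both libraries, and in each of these the step down to the next class was larger than counting error. Tnnt1, for example, was at 1211 CPM (896 to 1601) in Myh7-main nuclei of Ctrl and at 63.3 CPM (41.7 to 92.1) in the next class, nuclei with mixed myosins. In cKO it was at 985 CPM (908 to 1067) and at 245 CPM (215 to 277) in nuclei with fewer than 3 myosin UMIs, the class next in order there. Csrp3 was the exception, with its highest level in Myh2-main nuclei, at 228 CPM (184 to 279) in Ctrl and 179 CPM (149 to 214) in cKO. Its level in Ctrl Myh7-main nuclei, 98.8 CPM (26.9 to 253), could not be told apart from that of Myh2-main nuclei, while in cKO 62.5 CPM (44.2 to 85.8) was lower.

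Below the Myh7-main class the order depended on the gene and the library. Myoz2, Myl2 and Myl3 had Myh2-main nuclei next in Ctrl, at 444, 58.8 and 17.2 CPM. Of the 6 neighbouring steps in the order of 7 classes, Tnni1 and Myl3 had 1 step larger than counting error in each library, that below the Myh7-main class, and Myl2 had 1 in Ctrl and 4 in cKO. Tnnt1 had 3 and 5 such steps, and Myoz2 had 4 in each. For the summed members 5 of 6 steps in each library were larger than counting error. The exceptions were Myh1-main nuclei (155 CPM, 129 to 185) and nuclei outside the fibres (133 CPM, 112 to 157) in Ctrl, and nuclei with mixed myosins (1015 CPM, 936 to 1099) and Myh2-main nuclei (923 CPM, 853 to 998) in cKO. Myh4-main nuclei had the lowest sum in both libraries, at 51.2 CPM (45.3 to 57.6) and 220 CPM (204 to 238).

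**Figure D1:**
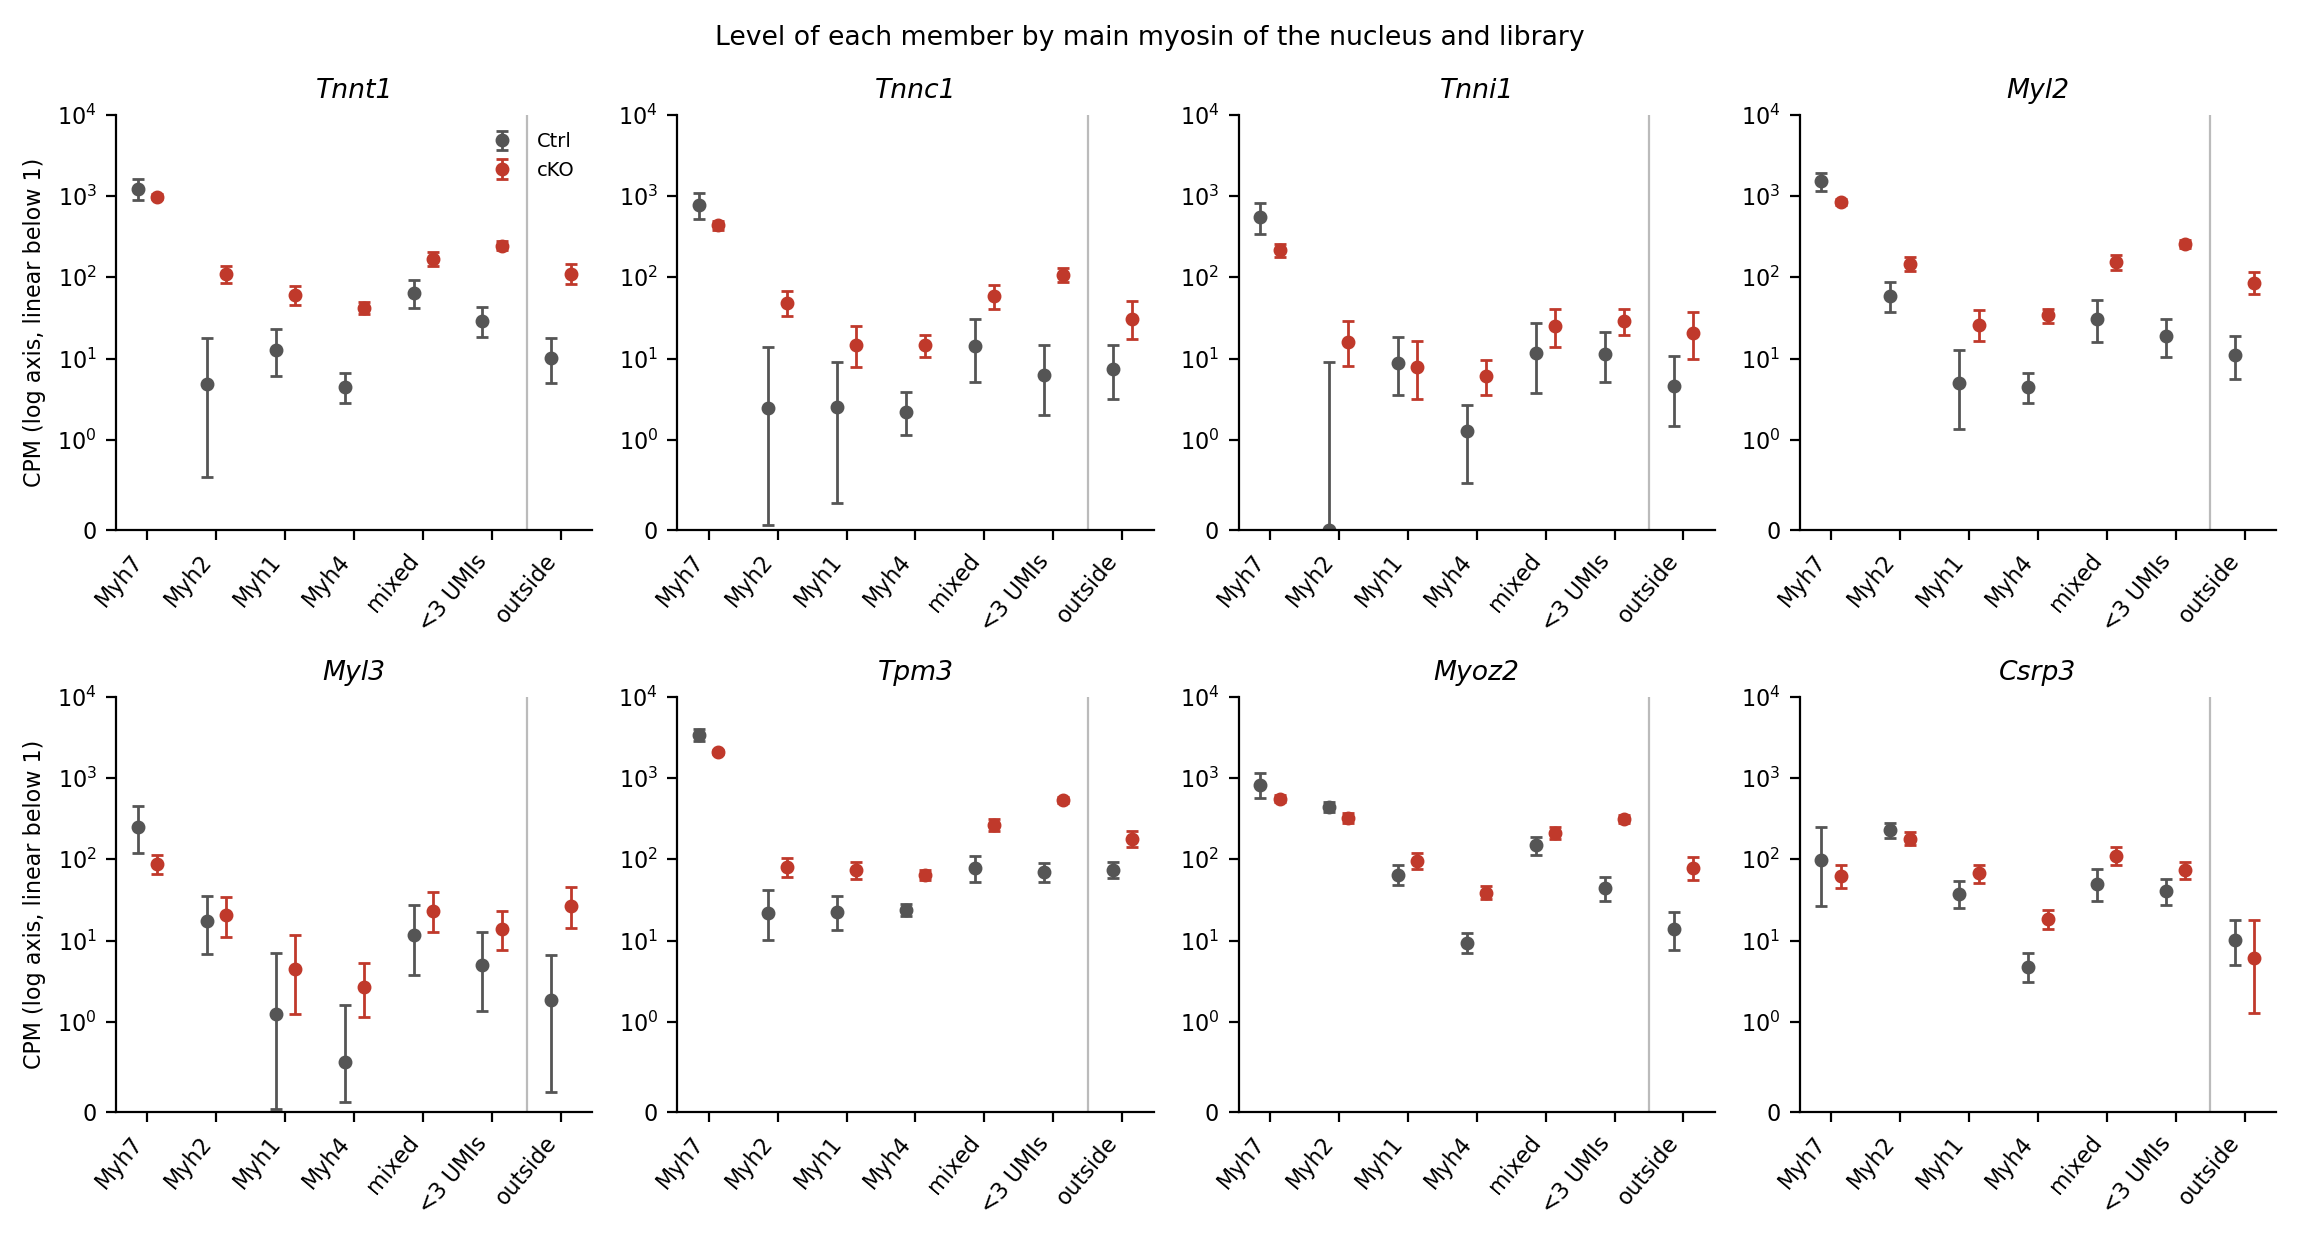
Level of each member in CPM (log axis, linear below 1) by main myosin of the nucleus, in Ctrl and cKO, with 95% exact Poisson intervals that cover counting error. Tnnt1 stood at 1211 and 985 CPM in Myh7-main nuclei against 4.43 and 42.1 CPM in Myh4-main nuclei.

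Within Myh7-main nuclei the direction was the reverse of that over all myonuclei. The summed members were at 8550 CPM (7672 to 9500, 346 UMIs) in the 19 Ctrl nuclei and at 5306 CPM (5125 to 5492, 3227 UMIs) in the 275 cKO nuclei. The log2 ratio was -0.69 (-0.85 to -0.52). All 8 members had a point value below that of Ctrl, and for 5 of them (Tnnc1, Tnni1, Myl2, Myl3 and Tpm3) the interval of the ratio lay below 0. All 5 were among the 7 members with at least 50 UMIs in this class, and the interval lay below 0 for 10.4% of 1752 genes with that many. Of the 8 members, 2 were at least 2-fold lower in cKO, while 9.36% of 1752 genes with that many UMIs were. At least 2-fold higher were 0 members and 12.7% of those genes. The median log2 ratio was -0.74 over the 8 members and -0.05 over those genes.

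The 2 members at least 2-fold lower were Tnni1 and Myl3. Tnni1 was at 544 CPM (341 to 823, 22 UMIs) in Ctrl and 215 CPM (180 to 256, 131 UMIs) in cKO. Myl3 was at 247 CPM (118 to 454, 10 UMIs) and 87.1 CPM (65.3 to 114, 53 UMIs). Both rested on few Ctrl molecules, and their log2 ratios of -1.34 and -1.50 had wide intervals, -1.99 to -0.61 and -2.49 to -0.36. Where the main myosin was read after thinning to 500 UMIs, which left 10 Ctrl and 95 cKO nuclei in the class, Myl3 turned to 1.47 (-1.15 to 6.83). Tnnc1 was at 766 CPM (520 to 1087) in Ctrl and 437 CPM (386 to 493) in cKO, and Myl2 at 1507 CPM (1153 to 1936) and 848 CPM (777 to 925). Tpm3 was at 3361 CPM (2819 to 3975) and 2111 CPM (1997 to 2230), a log2 ratio of -0.67 (-0.93 to -0.40).

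The ratio intervals of Tnnt1, Myoz2 and Csrp3 held 0. Tnnt1 was at 1211 CPM (896 to 1601) in Ctrl and 985 CPM (908 to 1067) in cKO. Myoz2 was at 815 CPM (561 to 1145) and 559 CPM (501 to 622). Csrp3 was at 98.8 CPM (26.9 to 253) from 4 UMIs and 62.5 CPM (44.2 to 85.8) from 38 UMIs, too few in Ctrl to show a difference of this size. Myh7 was at 3361 CPM in Ctrl against 3706 CPM in cKO in the same nuclei (log2 ratio 0.14, -0.11 to 0.40), as a gene that chose the class. The members held 2.54 UMIs for each Myh7 UMI in Ctrl and 1.43 in cKO. Tpm3 supplied 39.3% of the member UMIs in Ctrl and 39.8% in cKO.

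The single nuclei of the class overlapped between the libraries. The summed level of a nucleus ran from 3465 to 27752 CPM in Ctrl with a median of 8580 CPM, and from 0 to 19549 CPM in cKO with a median of 5016 CPM. No Ctrl nucleus and 5 of 275 cKO nuclei held none of the members. At least 5 of the 8 members were detected in 15 of 19 Ctrl nuclei (78.9%, 54.4 to 93.9) and in 93 of 275 cKO nuclei (33.8%, 28.2 to 39.7), at similar median depths of 2040 and 1968 UMIs. Myl2 was detected in 19 of 19 Ctrl and 198 of 275 cKO nuclei, and Tpm3 in 17 of 19 and 216 of 275. One Ctrl nucleus held 10.1% of the member UMIs of its class. The Ctrl class came almost whole from 1 cluster (18 of 19 nuclei), as did the cKO class (264 of 275).

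**Figure D2:**
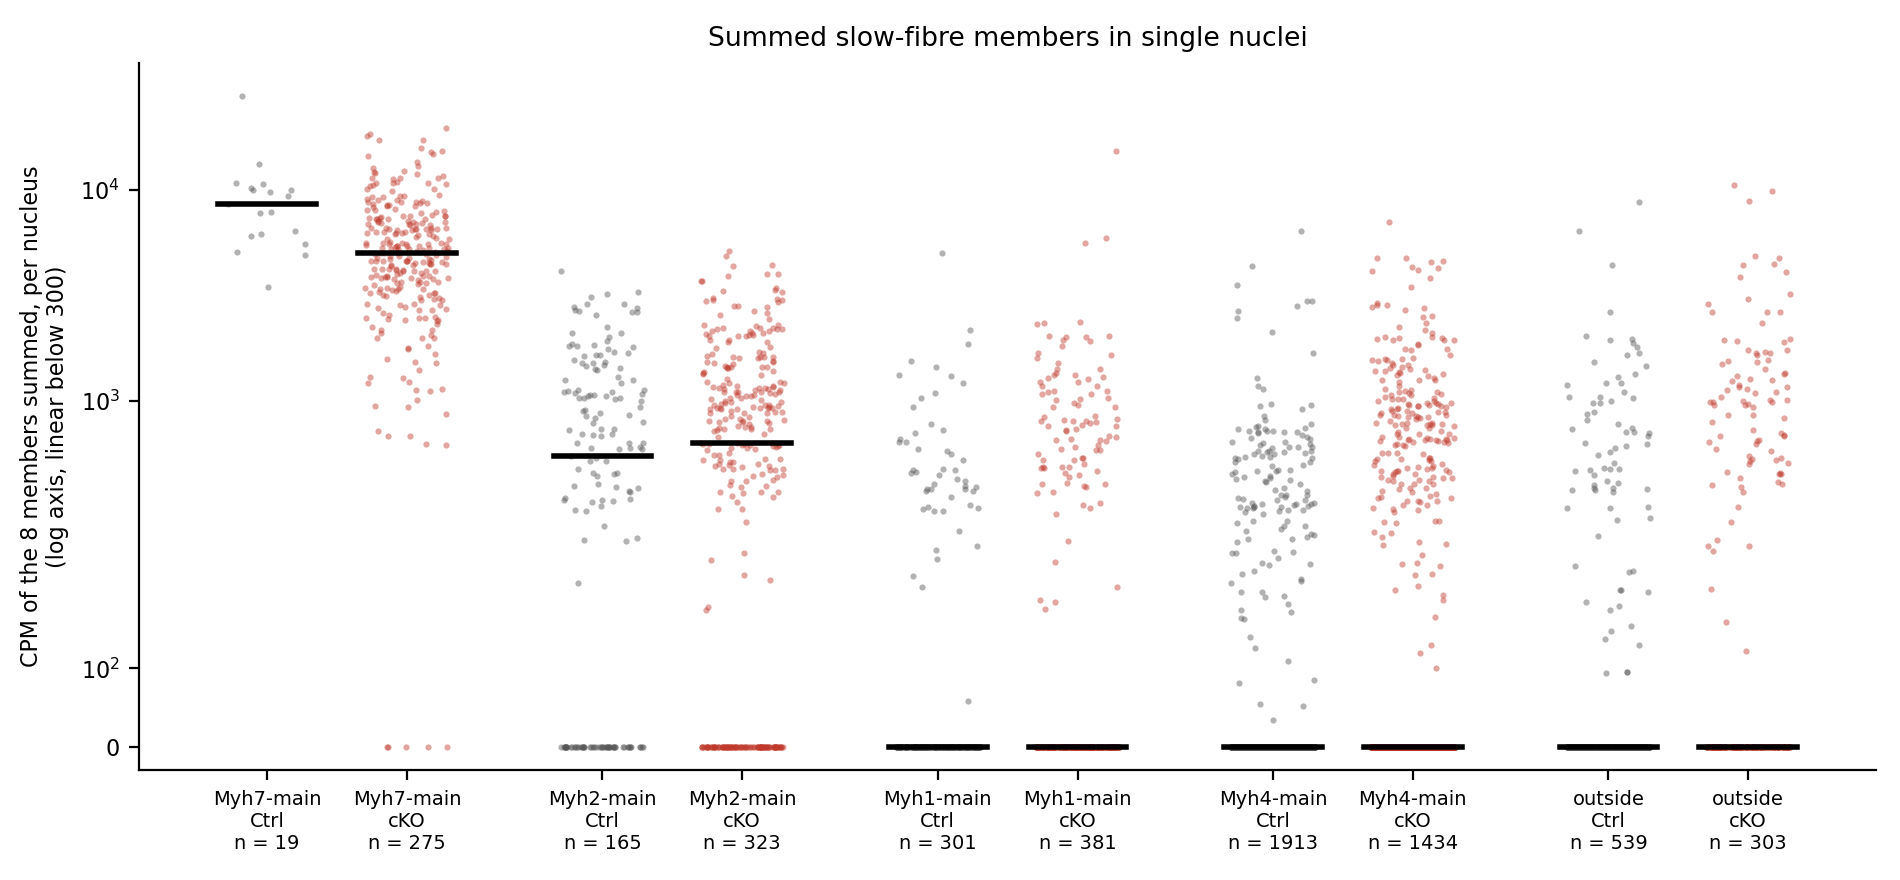
Summed level of the 8 members in each nucleus, in CPM on a vertical log axis that is linear below 300, by main myosin of the nucleus and library, with nuclei outside the fibres at the right and black bars for the medians. Myh7-main nuclei had medians of 8580 CPM in Ctrl against 5016 CPM in cKO, while the medians of Myh4-main nuclei were 0 in both libraries.

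Nuclei just inside and just outside the threshold of the class held similar member levels in cKO. Of the 275 cKO Myh7-main nuclei, 32 had exactly 3 myosin UMIs and a summed level of 4210 CPM (3642 to 4843), and the 243 with more had 5397 CPM (5207 to 5593). The 49 cKO nuclei with 2 myosin UMIs, both of Myh7, were left out of the class and had 4410 CPM (3973 to 4881). In Ctrl 1 nucleus had exactly 3 myosin UMIs, 18 had more and 3 had 2 UMIs of Myh7, so the edge of that class could not be described. In cKO, the 43 nuclei whose only myosin UMI was of Myh7 had 3743 CPM (3269 to 4266), and the 180 with no myosin UMI had 1822 CPM (1671 to 1983). Both lay below the Myh7-main level and above the 537 CPM of nuclei outside the fibres.

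The share of slow UMIs within each pair of slow and fast isoforms compares genes with the same role. It is a share of UMIs that is not corrected for length. Over all myonuclei the 7 slow members held 2.79% (2.63 to 2.95) of the UMIs of the 7 pairs in Ctrl and 15.5% (15.1 to 15.8) in cKO. Each of the 7 pairs had a higher slow share in cKO. Tnnc1 held 8.81% (6.74 to 11.3) and 51.1% (47.9 to 54.3) of the UMIs of the troponin C pair with Tnnc2. Myl2 held 14.4% (12.3 to 16.8) and 51.9% (49.7 to 54.1) of those with Mylpf, and Myoz2 held 17.9% (16.4 to 19.5) and 55.5% (53.4 to 57.6) of those with Myoz1. For the essential light chain both shares were small, with Myl3 at 0.508% (0.343 to 0.725) and 0.997% (0.818 to 1.20) of the UMIs shared with Myl1.

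In Myh7-main nuclei the slow share of all 7 pairs was 84.4% (80.5 to 87.8) in Ctrl and 77.9% (76.6 to 79.1) in cKO. This pooled share leans on Myl1, which supplied 7 of the 63 UMIs of the fast partners in Ctrl and 506 of 906 in cKO. Of the 7 pairs, 1 had intervals that did not overlap between the libraries. Myl3 made up 10 of 17 UMIs of the essential light chain pair in Ctrl (58.8%, 32.9 to 81.6) and 53 of 559 in cKO (9.48%, 7.18 to 12.2). The fast partner Myl1 was at 173 CPM in Ctrl (7 UMIs) and 832 CPM in cKO (506 UMIs), a log2 ratio of 2.27 (1.21 to 3.59). Its level outside the fibres was 299 CPM in Ctrl against 611 CPM in cKO, so Myl1 in cKO Myh7-main nuclei was 1.36-fold (1.18 to 1.58) its level outside. Among the other fast partners, Tnnt3 was at 741 CPM in Ctrl against 342 CPM in cKO. The slow shares of the other 6 pairs in the class overlapped in their intervals. Point values were higher in cKO for Tnnt1, at 62.0% (50.4 to 72.7) and 74.2% (71.1 to 77.2), and Myoz2, at 84.6% (69.5 to 94.1) and 94.7% (91.9 to 96.8). That of Tpm3 was higher too, at 90.7% (84.8 to 94.8) and 91.9% (90.4 to 93.3). Those of Tnnc1, Tnni1 and Myl2 were lower, for example Myl2 at 98.4% (91.3 to 100) and 96.3% (94.3 to 97.7).

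**Figure D3:**
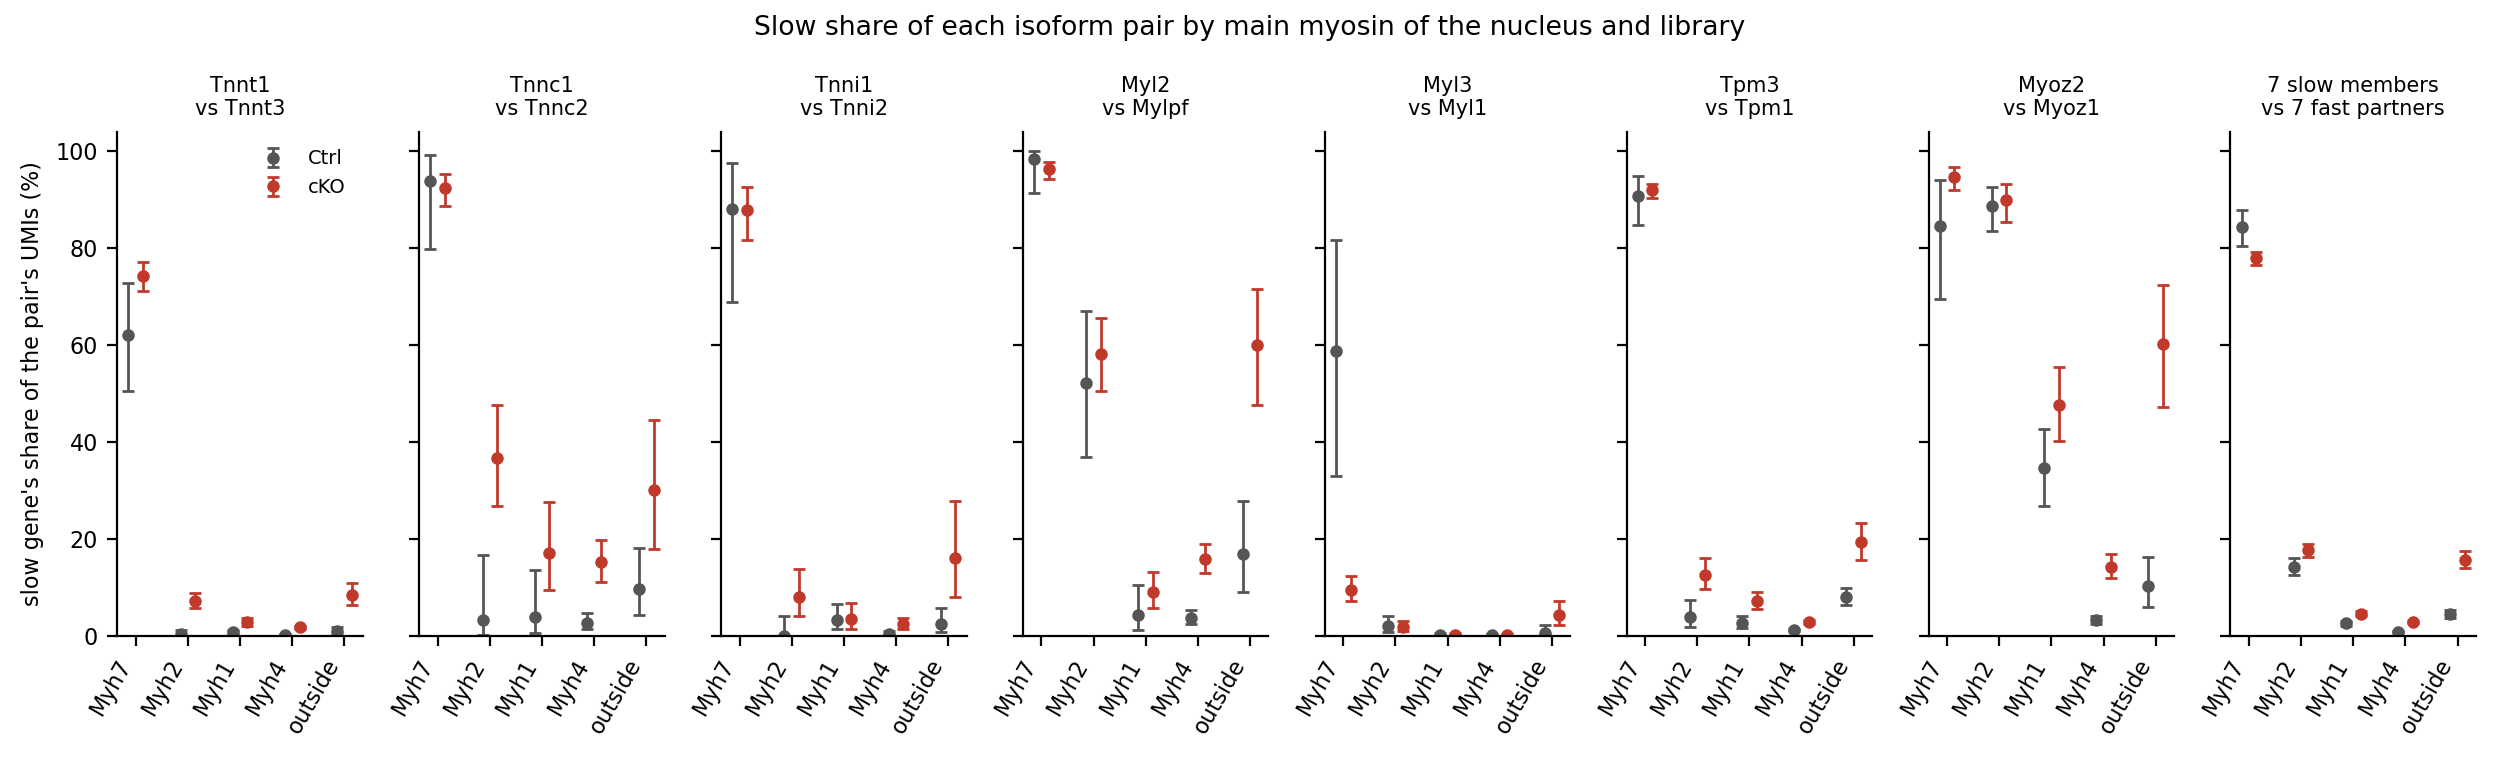
Slow share of the UMIs of each pair of slow and fast isoforms, in percent, by main myosin of the nucleus and library, with 95% Clopper-Pearson intervals. In Myh7-main nuclei Myl3 held 58.8% of the pair with Myl1 in Ctrl and 9.48% in cKO, while Myl2 held 98.4% and 96.3% of the pair with Mylpf.

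In Myh2-main nuclei, of fast oxidative fibres, the Z-disc members had point values below those of Ctrl in cKO. Myoz2 was at 444 CPM (381 to 513) in Ctrl and 324 CPM (283 to 369) in cKO, a log2 ratio of -0.45 (-0.74 to -0.16), which came to 0.01 (-0.44 to 0.47) where the main myosin was read after thinning to 500 UMIs. Csrp3 was at 228 CPM (184 to 279) and 179 CPM (149 to 214), with a ratio interval of -0.75 to 0.06. Myoz2 held 88.7% of the UMIs of its pair in Ctrl and 89.9% in cKO in this class, close to its shares of 84.6% and 94.7% in Myh7-main nuclei. The troponins were near 0 in Ctrl, with 2 UMIs of Tnnt1 (4.90 CPM, 0.594 to 17.7), 1 of Tnnc1 (2.45 CPM, 0.0621 to 13.7) and 0 of Tnni1 in 165 nuclei. In 323 cKO nuclei they had 75 UMIs (109 CPM, 86.0 to 137), 33 UMIs (48.1 CPM, 33.1 to 67.6) and 11 UMIs (16.0 CPM, 8.01 to 28.7). The fold was 22.3 (5.96 to 188) for Tnnt1 and 19.6 (3.29 to 799) for Tnnc1, and Tnni1 was at least 2.18-fold higher against the floor of 3 UMIs in the class (the lower limit of its counting interval was 1.49-fold). Myl2 was at 58.8 CPM (37.7 to 87.5) in Ctrl and 146 CPM (119 to 177) in cKO, while Myl3 was at 17.2 and 20.4 CPM (log2 ratio 0.25, -1.15 to 1.80).

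Of the 8 members, 5 were at least 2-fold higher in cKO in Myh2-main nuclei, with Tnni1 set against the floor. Of the 5 members with at least 50 UMIs in that class 3 were, against 1.72% of 2668 genes with that many UMIs. The summed level was 777 CPM (694 to 868) and 923 CPM (853 to 998), a log2 ratio of 0.25 (0.05 to 0.45), and of 0.16 (-0.04 to 0.36) with Tpm3 left out. The cluster that held most Myh7-main nuclei took 24 of the 165 Ctrl and 98 of the 323 cKO nuclei of the class. The sums there were 1150 CPM (891 to 1461) and 1227 CPM (1094 to 1371), and in the other clusters 715 CPM (629 to 809) and 746 CPM (667 to 832), with overlapping intervals in both. In Myh1-main nuclei it was 155 CPM (129 to 185) and 349 CPM (311 to 390), a log2 ratio of 1.17 (0.87 to 1.48), with 5 of 8 members at least 2-fold higher, of which 2 were among the 4 with at least 50 UMIs, against 2.49% of 3581 genes with that many. Of these nuclei, 31 of 301 in Ctrl and 93 of 381 in cKO lay in that same cluster, with sums of 504 CPM (376 to 661) and 747 CPM (650 to 854). Those elsewhere had 103 CPM (80.3 to 130) and 158 CPM (127 to 193). The cKO value was the higher in both parts, although the CPM intervals overlapped at their edges in each. No interval of the ratio was computed within clusters. In Myh4-main nuclei the summed level was 51.2 CPM (45.3 to 57.6) and 220 CPM (204 to 238), a log2 ratio of 2.10 (1.90 to 2.31). There 8 of 8 members were at least 2-fold higher, among them all 6 with at least 50 UMIs, against 1.77% of 7749 genes with that many. The log2 ratio of the sum was thus lowest in Myh7-main and highest in Myh4-main nuclei among the 4 myosin classes.

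**Figure D4:**
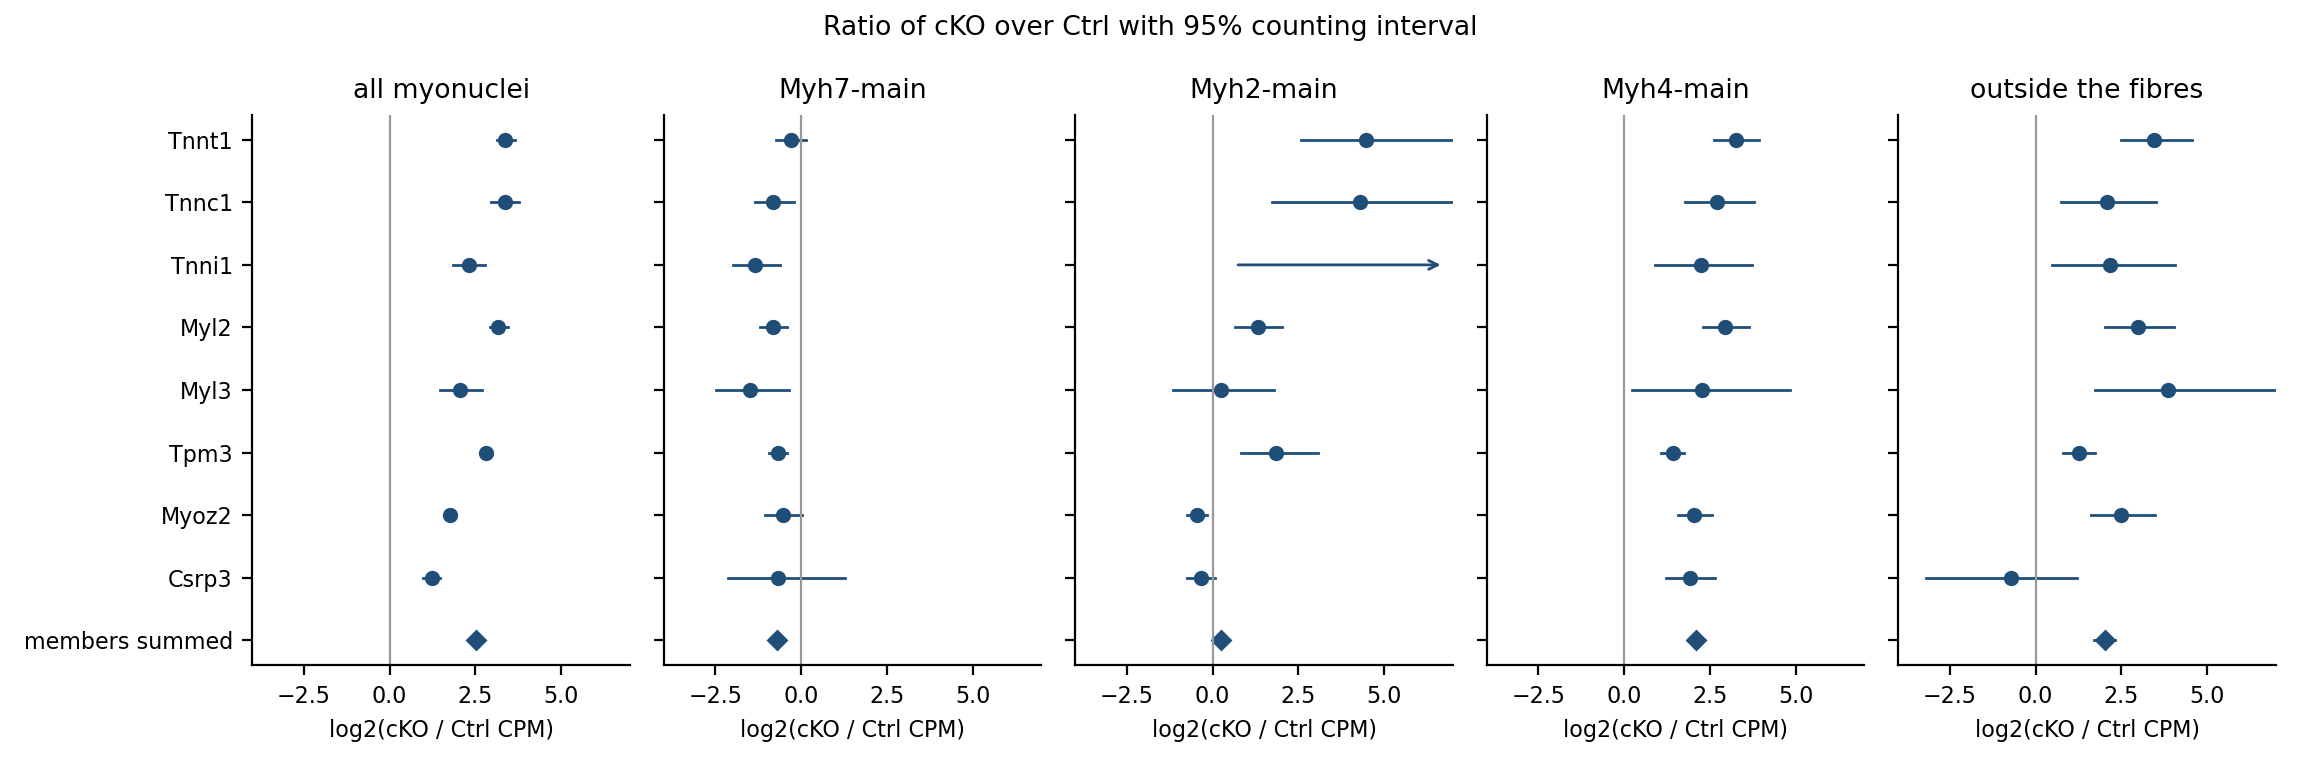
Log2 ratio of cKO over Ctrl for each member and their sum (horizontal axis) in all myonuclei, in Myh7-main, Myh2-main and Myh4-main nuclei and outside the fibres, with 95% exact conditional intervals cut at the edge of the plot where they run beyond it. The arrow marks Tnni1 in Myh2-main nuclei, with 0 UMIs in Ctrl, and the sum lies at -0.69 in Myh7-main and at 2.10 in Myh4-main nuclei.

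Nuclei outside the fibres should lack most of these transcripts, and their level there was taken as a measure of free RNA, apart from Tpm3, which other cell types also make. The summed level outside the fibres was 133 CPM (112 to 157) in Ctrl and 537 CPM (474 to 606) in cKO, a log2 ratio of 2.01 (1.71 to 2.31). Tpm3 held 55.9% of these UMIs in Ctrl and 33.2% in cKO. Without it the sum was 58.8 CPM (45.3 to 75.0) and 359 CPM (307 to 416), or 6.10-fold higher in cKO against 4.03-fold with it. Of the 8 members, 7 were at least 2-fold higher in cKO there, among them all 4 with at least 50 UMIs, against 1.39% of 4807 genes with that many. Tnnt1 was at 10.1 CPM (5.04 to 18.1) and 111 CPM (83.1 to 144), and Tpm3 at 74.4 CPM (59.1 to 92.4) and 178 CPM (143 to 220). Csrp3, the exception, was at 10.1 CPM from 11 UMIs in Ctrl and 6.15 CPM from 3 UMIs in cKO. By cell type, the summed level was 105 CPM in Ctrl against 333 CPM in cKO in nuclei like fibro-adipogenic progenitors (318 and 141 nuclei). In endothelial-like nuclei (134 and 112) it was 187 and 985 CPM. Immune-like nuclei (27 and 16) had the opposite order, at 398 CPM (263 to 580) and 193 CPM (62.6 to 450), as did adipocyte-like nuclei (7 and 9), at 142 CPM (29.3 to 415) and 94.2 CPM (11.4 to 340), both with overlapping intervals. Satellite-like nuclei (22 and 11) had 42.3 and 176 CPM from 2 UMIs in each library, and smooth muscle and pericyte-like nuclei (31 and 14) had 33.9 and 310 CPM from 3 and 6 UMIs.

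As a percentage of the level over all myonuclei, the level outside the fibres was 58.9% (28.7 to 109) in Ctrl and 62.3% (46.5 to 81.9) in cKO for Tnnt1, and 61.6% (31.1 to 111) and 53.3% (38.2 to 72.5) for Myl2. For the 4 myosins, that percentage ran from 43.8% for Myh1 to 54.0% for Myh4 in Ctrl and from 48.2% for Myh7 to 53.4% for Myh2 in cKO. For the 7 fast partners it ran from 40.2% for Myl1 to 91.9% for Tnnc2 in Ctrl and from 35.8% for Myoz1 to 102% for Tnnc2 in cKO. Tpm3 at 154% (119 to 196) and Tnnc1 at 102% (41.8 to 214) in Ctrl and Myl3 at 168% (86.7 to 300) in cKO stood above 100%, and Csrp3 at 10.0% (2.06 to 29.5) in cKO and Myoz2 at 26.2% (14.5 to 43.7) in Ctrl stood lowest in their libraries.

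**Figure D5:**
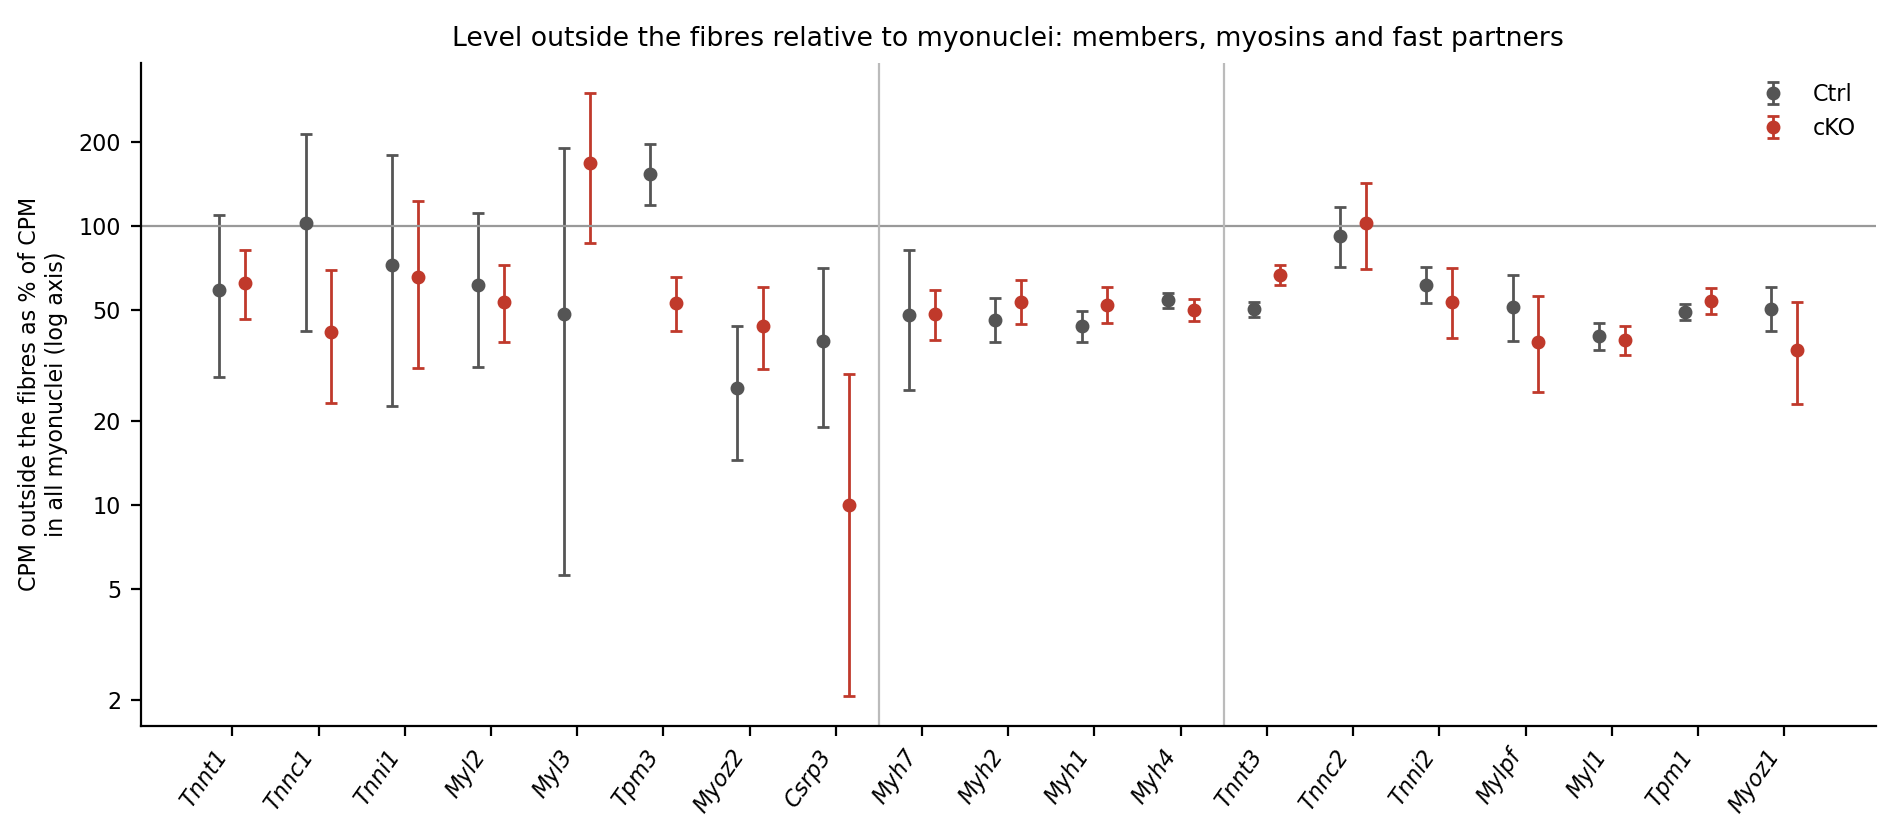
Level of each member, myosin and fast partner outside the fibres as a percentage of its level in all myonuclei of the same library (log axis), with 95% intervals. The 4 myosins lay between 43.8% and 54.0%, while Csrp3 was at 10.0% in cKO and Tpm3 at 154% in Ctrl.

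Set against this background, all 8 members in Myh7-main nuclei lay above their level outside the fibres, with the interval of the fold above 1, in both libraries. Of genes with at least 50 UMIs in the class and outside together, 8.30% in Ctrl and 17.3% in cKO did, and 3 and 7 members had that many UMIs. The sum was 64.2-fold (52.7 to 78.5) its level outside in Ctrl and 9.88-fold (8.71 to 11.3) in cKO. With Tpm3 left out it was 88.3-fold (66.5 to 119) and 8.91-fold (7.63 to 10.5). In Myh2-main nuclei of cKO, Myoz2, Csrp3 and Myl2 lay above the level outside, while Tnnt1, Tnnc1, Tnni1 and Myl3 were within the interval of that level and Tpm3 below it. All 3 that lay above were among 5 members with at least 50 UMIs, against 18.9% of genes. In Ctrl Myh2-main nuclei Myoz2, Csrp3, Myl2 and Myl3 lay above, Myl3 from 7 UMIs in the class and 2 outside, and Tpm3 below. The share of all genes that lay above was not computed for that class in Ctrl. Within that class the troponins differed by cluster. In the cluster that held most Myh7-main nuclei, 98 cKO Myh2-main nuclei had Tnnt1 at 241 CPM (185 to 310) and Tnnc1 at 107 CPM (70.4 to 155), above the 111 and 30.7 CPM outside the fibres, while the 225 in other clusters had 32.3 CPM (17.7 to 54.3) and 13.9 CPM (5.09 to 30.2). The 24 Ctrl nuclei of the class in that cluster had 0 UMIs of either gene, and the 141 elsewhere had 2 and 1. The level outside was uneven as well, since 37 of its 54 Tnnt1 UMIs in cKO lay in endothelial-like nuclei. These had Tnnt1 at 218 CPM (154 to 301) and Tnnc1 at 41.3 CPM (16.6 to 85.1), with intervals that overlapped those of the 98 nuclei. The part of free RNA in the Myh2-main values was not tested. In Myh1-main nuclei 2 members in Ctrl and 1 in cKO lay above the level outside (1 of 2 and 1 of 5 with at least 50 UMIs, against 16.2% and 17.6% of genes), and 4 lay below it in cKO (3 of 5, against 33.8%). In Myh4-main nuclei 0 lay above in either library, against 15.5% and 14.6% of genes. In cKO 7 of 8 lay below it there, 5 of the 6 with at least 50 UMIs, against 28.9% of genes.

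The Myh4-main values differed between nuclei with and without a Myh7 UMI. The 20 Ctrl and 89 cKO Myh4-main nuclei with at least 1 Myh7 UMI had summed levels of 1041 CPM (844 to 1270) and 1062 CPM (942 to 1194). The 1893 and 1345 nuclei with none had 33.8 CPM (29.1 to 39.2) and 137 CPM (124 to 152). The levels of nuclei with a Myh7 UMI overlapped between the libraries, while those of nuclei without one did not. In cKO the former lay above and the latter below the 537 CPM outside the fibres. Nuclei outside were not split by a Myh7 UMI, so neither comparison sets like against like. Endothelial-like nuclei of cKO, also unsplit, had 985 CPM (841 to 1146). In the cluster that held most Myh7-main nuclei, 53 Ctrl and 82 cKO Myh4-main nuclei had 400 CPM (312 to 505) and 1312 CPM (1175 to 1461). The 1860 and 1352 nuclei elsewhere had 39.5 CPM (34.3 to 45.3) and 118 CPM (106 to 132), so the intervals lay apart in both parts. The part of free RNA in these values was not tested.

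Nuclei with fewer than 3 myosin UMIs held many of the members in cKO. Their summed level was 224 CPM (192 to 259) in Ctrl and 1571 CPM (1495 to 1650) in cKO, and in cKO 6 of the 8 members lay above their level outside the fibres, the 6 with at least 50 UMIs, against 15.2% of genes with that many. The cluster that held most Myh7-main nuclei took 53 of these 463 nuclei in Ctrl and 305 of 674 in cKO. There the summed level was 904 CPM (730 to 1108) and 2602 CPM (2467 to 2741), against 123 CPM (98.1 to 152) and 386 CPM (332 to 446) in nuclei of the class in other clusters. Tnnc1 held 66.3% (58.4 to 73.5) and Myl2 79.7% (74.9 to 83.9) of their pairs in the cKO class, against 8.77% (2.91 to 19.3) and 23.4% (13.8 to 35.7) in Ctrl. Over both kinds of nuclei, at least 3 members met in 62 Ctrl nuclei, of which 19 were Myh7-main, and in 478 cKO nuclei, of which 224 were Myh7-main and 115 held fewer than 3 myosin UMIs.

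The difference of 859 CPM in the summed level over all myonuclei was divided into what each class's share of all myonuclear UMIs gave and what the levels within classes gave. Class shares gave 672 CPM, or 78.3%, of which 588 CPM came from the larger share of UMIs in Myh7-main nuclei. Levels within classes gave 187 CPM, made up of 168 CPM from nuclei with fewer than 3 myosin UMIs, 95.2 CPM from Myh4-main nuclei and smaller parts from the others, less 154 CPM in Myh7-main nuclei. For Tnni1 and Myl3 the part from levels was below 0, at -8.67 of 24.9 CPM and -3.84 of 12.0 CPM. With the classes read after thinning every nucleus to 500 UMIs, class shares gave 18.7% of the summed difference, since most nuclei then held fewer than 3 myosin UMIs.

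The share of nuclei with a member was compared at equal depth by thinning every nucleus to 500 UMIs. Over all myonuclei, Tnnt1 was detected in 0.770% (0.489 to 1.15) in Ctrl and 7.17% (6.31 to 8.10) in cKO, against 0.557% (0.115 to 1.62) and 3.63% (1.83 to 6.40) of nuclei outside the fibres. Tpm3 was detected in 1.81% (1.36 to 2.35) and 9.75% (8.76 to 10.8) of myonuclei, against 2.78% and 6.27% outside. All 8 members were detected in a larger share of cKO than of Ctrl myonuclei, with intervals that did not overlap. In Myh7-main nuclei the intervals of all 8 shares overlapped at this depth, with Tnnt1 in 8 of 19 Ctrl nuclei (42.1%, 20.3 to 66.5) and 109 of 275 cKO nuclei (39.6%, 33.8 to 45.7). Csrp3 was found in 0 of 19 thinned Ctrl nuclei, which by the floor of 3 counts allows a share of up to 15.8% of nuclei with a UMI (Clopper-Pearson upper bound 17.6%), and in 5 of 275 cKO nuclei. Thinned to 1000 UMIs, which left out 24 shallower cKO nuclei, 2 members had shares apart. Tnni1 was then detected in 57.9% (33.5 to 79.7) of Ctrl and 13.9% (9.91 to 18.9) of cKO Myh7-main nuclei, and Tnnc1 in 63.2% (38.4 to 83.7) and 30.3% (24.7 to 36.4). Without thinning, Tnni1 at 68.4% (43.4 to 87.4) and 29.1% (23.8 to 34.8) and Myl2 at 100% (82.4 to 100) and 72.0% (66.3 to 77.2) were apart.

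Among the fast partners over all myonuclei, Myl1 was the one at least 2-fold higher in cKO, at 745 CPM in Ctrl against 1573 CPM in cKO (log2 ratio 1.08, 1.03 to 1.12). Mylpf was at 106 and 150 CPM (0.50, 0.36 to 0.63). Tnnt3, Tnni2, Tpm1 and Myoz1 had log2 ratios of -0.22, -0.56, -0.35 and -0.75 with intervals below 0, and that of Tnnc2 was -0.09 (-0.26 to 0.09). Of 16 other slow-fibre genes, 14 had at least 50 UMIs over all myonuclei, 7 were at least 2-fold higher in cKO and 0 at least 2-fold lower, against 3.14% and 3.25% of all 9280 genes with that many UMIs. Sln, which encodes the calcium pump regulator sarcolipin, had 0 UMIs in Ctrl and 308 in cKO. Against the floor of 3 UMIs it was 120-fold higher, and the lower limit of its counting interval was 96.8-fold. Myh7b, a slow-type myosin gene, was at 3.43 and 52.2 CPM, and Atp2a2, the slow calcium pump, at 61.3 and 658 CPM. The calcium store protein Casq2 had a log2 ratio of 1.85, Ankrd1 of 1.69 and the LIM protein gene Fhl1 of 1.15. Of 12 other paralogs of the members and myosins, among them cardiac, developmental, smooth muscle and adult skeletal genes, 4 had at least 50 UMIs. Of these 0 were at least 2-fold higher, against the same background, and Tnnt2, the cardiac troponin T, was lower (53 and 18 UMIs, log2 ratio -1.34, -2.20 to -0.54). Tpm2 had a log2 ratio of 0.61, Myoz3 of 0.60 and Myl4 of 0.29.

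The members did not share 1 pattern over the 4 myosin classes and the nuclei outside the fibres in both libraries (10 points that share libraries and depth). Against the other members summed, the Pearson r of log2(CPM + 20) was highest for Myl2 at 0.97, 0.94 for Myl3, between 0.81 and 0.91 for Tnnc1, Tnnt1, Tnni1, Myoz2 and Tpm3, and 0.53 for Csrp3. Csrp3 was the only member with its highest level in Myh2-main nuclei in both libraries. Among 7797 genes, those most like the summed members were D630024D03Rik (0.98), Serf2 (0.97), Tom1 and Acadm (0.96), and Abhd18, Gabarapl1, Cyfip2, Arid5a, Idh2 and Nnt (0.95). These correlations describe 10 points and carry no test.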

How the data were processed

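Nuclei of 3 GP muscles per group, pooled per the protocol, were captured in droplets, sequenced from the 3′ end of the RNA and counted as unique molecular identifiers (UMIs), so that 1 UMI stands for 1 captured RNA molecule. The authors deposited raw counts of UMIs per gene and barcode, with no normalization. The submitters' processing notes name Cell Ranger 3.1.0 and the mm10/GRCm38 genome. The study's methods state default parameters, with which this software counts reads that lie in annotated exons on the sense strand. The annotation release, and whether the reference was built to take in introns, are not given in the sources used here. Since much nuclear RNA is unspliced, the choice affects the UMIs that each gene received. The labels name v2 of the reagent kit and the study's methods a later version, so the chemistry is unsettled.

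Following the study's filters, nuclei with at least 100 genes, at least 500 UMIs and at most 10% mitochondrial UMIs were kept. Scrublet (scanpy 1.11.5, expected rate 0.06) marked 0 doublets in both libraries and so had not worked. After that was seen, the 8% of nuclei with the highest score were removed, 307 in Ctrl and 313 in cKO. Nuclei were clustered with Seurat 5.3.0 and sctransform 0.4.2 (R 4.3.3) on 25 principal components. The members and the 4 adult myosins were left out of the clustering. Resolution 0.5 was used in place of the study's 0.1, a choice made after the clusters were seen. Clusters outside the fibres were named from marker lists (at least 3 markers with 10 UMIs or more and a level 2 times that of other nuclei).

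Each myonucleus was assigned to the myosin with 60% or more of its Myh7, Myh2, Myh1 and Myh4 UMIs, given 3 or more of them. UMIs were summed per class and library and divided by all UMIs of the class and scaled to a common total (CPM). Intervals are 95% (exact Poisson for CPM, exact conditional for ratios, Clopper-Pearson for shares) and were computed in Python 3.11.15 with numpy 2.4.6, scipy 1.17.1 and pandas 2.3.3, with plots from matplotlib 3.10.9. The intervals and the floor of 3 UMIs cover counting error only. With 1 library per group there was no test. The code was tested on simulated data. Alternatives covered doublets, depth, the CPM total, the weighting of nuclei, the clustering and the myosin threshold.

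The genes named are the 8 members, the 4 myosins, 7 fast partners, up to 6 of 16 other slow-fibre genes and up to 4 of 12 paralogs by size of the log2 ratio among genes with at least 50 UMIs, and the 10 genes most like the members by Pearson r of log2(CPM + 20). The members, lists and settings were chosen with earlier results of these data known. No column of per-sample values was left unused.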

Additional observations from a re-analysis of the deposited data

Results flagged for a closer look

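The cKO over Ctrl ratios of several members pointed opposite ways in the 1 pair of libraries when nuclei with different main myosins were compared, and with 1 library per group these differences were not tested. On the log2 scale, Tnnc1 was at -0.81 in Myh7-main nuclei against 4.30 in Myh2-main, 2.55 in Myh1-main and 2.71 in Myh4-main nuclei. In Ctrl these Tnnc1 values rested on 31, 1, 2 and 12 UMIs. Myl2 was at -0.83 in Myh7-main nuclei against 1.31, 2.37 and 2.94 in the same order. Tpm3 was at -0.67 against 1.86, 1.70 and 1.41. Tnni1 was at -1.34 in Myh7-main and 2.23 in Myh4-main nuclei, and Myl3 at -1.50 and 2.28. The Myl3 value in Myh4-main nuclei rested on 3 and 8 UMIs, and that in Myh7-main nuclei turned to 1.47 where the main myosin was read after thinning to 500 UMIs. The summed members were at -0.69 in Myh7-main nuclei against 0.25, 1.17 and 2.10 in Myh2-main, Myh1-main and Myh4-main nuclei. In cKO the levels of 4 members in Myh1-main and of 7 in Myh4-main nuclei lay below those of the nuclei outside the fibres, and Tnnc1 in Myh2-main nuclei was 1.57-fold its level there, with an interval that held 1 (33 and 15 UMIs). The part of free RNA in these ratios was not tested.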

How the results depend on the processing

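No paired analysis was possible because each group had 1 library and no barcode could be traced to an animal, and no library could be left out. Of 61 recomputed summed or listed values, 48 stayed within the interval of the main value or a set margin, 13 moved outside it and 0 changed direction. The margin was used for counts of members and for shares, which had no such interval. Counts of members recomputed with other UMI thresholds for the background genes could not change, since those thresholds do not enter them. Over all myonuclei, the log2 ratio of the summed members moved from 2.53 to 2.63 with Malat1 and mitochondrial genes left out of the CPM total and to 2.36 as a mean of the nuclei's own CPM. In Myh7-main nuclei the ratio of -0.69 moved to -0.47 without Malat1 and mitochondrial genes and to -0.39 where the main myosin was read after thinning to 500 UMIs, and it was below 0 in 8 of 8 alternatives. That thinning left 10 Ctrl and 95 cKO Myh7-main nuclei. It also moved Myh2-main nuclei to 0.49 and Myh4-main nuclei to 1.76. Myh4-main nuclei came to 1.80 as a mean of the nuclei's own CPM and to 1.89 with a main myosin of 80% of at least 5 UMIs. The share of the summed difference that came from class shares moved from 78.3% to 18.7% with the thinned classes, since most nuclei then held fewer than 3 myosin UMIs.

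Outside the fibres, the ratio of 2.01 moved to 1.66 in FAP-like nuclei alone and to 2.53 in nuclei chosen by 2 or more UMIs of outside markers. That choice took 3121 Ctrl and 2844 cKO nuclei and therefore held mostly fibre nuclei. It moved to 1.52 without nuclei that held a Myh7 UMI and to 2.61 with Tpm3 left out of the sum, alternatives chosen after seeing the data. Of 335 values of single members and shares, also chosen after seeing the data, 312 stayed, 20 moved and 3 changed direction. These 3 came from the thinned classes and were Myl3 in Myh7-main nuclei at 1.47, Myoz2 in Myh2-main nuclei at 0.01 and Myoz2 in Myh1-main nuclei at -0.47. The members at least 2-fold higher in all myonuclei numbered 7 as a mean of the nuclei's own CPM and 8 in every other alternative run. The Myh7-main class of Ctrl held 19 nuclei and 346 member UMIs, which sets the width of its intervals.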

Other observations

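In Myh7-main nuclei Ankrd2, a stretch-responsive ankyrin repeat protein, was at 717 CPM in Ctrl against 118 CPM in cKO (29 and 72 UMIs, log2 ratio -2.60, 95% interval -3.24 to -1.92). Mybpc1, the slow myosin-binding protein C, was at 4225 CPM in Ctrl against 1682 CPM in cKO (log2 ratio -1.33, -1.56 to -1.09). Over all myonuclei the ratio of Ankrd2 was -0.39 and that of Mybpc1 was 0.31 (0.27 to 0.35), in the direction opposite to its value in this class. Ankrd2 also had ratios of -1.65, -1.37 and -0.71 in Myh2-main, Myh1-main and Myh4-main nuclei, and Mybpc1 of -0.41, -0.42 and 0.14. In Myh7-main nuclei Atp2a2, the slow-fibre calcium pump, was at 3731 and 3647 CPM (log2 ratio -0.03, -0.27 to 0.21). Sln, which encodes the calcium pump regulator sarcolipin, had 0 UMIs in the Ctrl class and 114 UMIs in the cKO class. Against the floor of 3 UMIs it was 2.53-fold higher, and the lower limit of its counting interval was 2.02-fold. Of 11 listed slow-fibre genes with at least 50 UMIs in Myh7-main nuclei, 1 was at least 2-fold higher in cKO and 2 were at least 2-fold lower, against 12.7% and 9.36% of 1752 genes with that many UMIs.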
